A study of Mus musculus with 8 samples.

Results

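The nuclei described here are cardiac fibroblast nuclei of adult mouse heart that carried transcripts of Fgf10, Acss3, Lvrn, Dpep1 and Inmt. They were chosen by a rule on single-nucleus counts. A nucleus had to pass quality limits (at least 200 genes detected, under 5% mitochondrial UMIs, where a UMI is 1 counted RNA molecule), hold under 2% of its UMIs in the heart muscle genes Ttn, Ryr2 and Trdn, and hold 0 UMIs of the endothelial gene Cdh5, the macrophage gene Csf1r and the pericyte gene Rgs5. Of the 17809 nuclei that met these limits, a member then had at least 2 of the 5 genes detected and at most 1 gene detected from each of the Pi16 set (Pi16, Cd248, Gfpt2, Plcxd3), the Kcnip1 set (Kcnip1, Gfra1, Hsd11b1, Necab1) and the Dkk3 set (Dkk3, Prg4, Prr16, Adamts15). In all, 1697 nuclei were members, out of 37767 that passed the quality limits.

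Nuclear RNA from adult hearts was profiled by droplet single-nucleus sequencing. The labels call the animals either non-transgenic (nTg, wild type) or transgenic (Tg) for CCNA2, a cyclin expressed constitutively from the transgene, and give each library a sex. The promoter of the transgene, the strain, the ages and whether each library came from 1 animal are not given in the sources used here. Replicates are therefore samples that the labels number, and each p-value measures only the spread between these samples, which may be technical. Of the 8 deposited matrices, 5 matched their own barcode lists and were used, and they are given below always in the same order: nTg female 1 first, then Tg female 1 and 2, then Tg male 1 and 2, by their labels. Of the other matrices, those labelled nTg female 2, nTg male 1 and nTg male 2 each held the same values as the Tg matrix of that sex and number, and were not analysed here. Only 1 library labelled nTg remained, so the sex comparison below was made between the libraries labelled Tg, and all of its libraries carry the Tg label.

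The 5 libraries held between 25045167 and 38593706 UMIs. Ccna2 itself did not follow the labels: in cardiomyocyte nuclei it stood at 449, 0.448, 801, 219 and 145 counts per 1000000 UMIs (CPM) in the library order given above. The library labelled nTg female 1 was thus among those with high Ccna2 and the library labelled Tg female 1 was at the background, so each library is named by its label only. The female libraries labelled Tg thus differ from each other in Ccna2, and every difference between the sexes below, and every fit with a term for genotype, may mix genotypes. In the members Ccna2 gave 9, 1, 2, 5 and 4 UMIs, or 7.21, 1.66, 12.4, 3.28 and 2.93 CPM. Xist, transcribed from the inactive X chromosome, stood at 1921, 2172, 1800, 0 and 0.731 CPM in the members and the Y-linked Ddx3y at 0, 0, 0, 86.5 and 84.8, which is the order of the labelled sexes. Pairs of libraries shared between 14 and 28 cell barcodes.

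Fibroblasts of the heart lie between the muscle cells, make the collagen-rich matrix that holds the tissue together, and are the cells that turn into matrix-secreting myofibroblasts after injury. Of the genes in the rule, Fgf10 encodes a secreted growth factor that signals through an epithelial splice form of the receptor Fgfr2 and is best known from the budding of lung and limb. Acss3 encodes a mitochondrial enzyme that activates short-chain acids such as propionate to their coenzyme A esters, and Inmt a methyltransferase acting on tryptamine and related amines. Lvrn and Dpep1 encode peptidases of the cell surface: laeverin is an aminopeptidase of the M1 family, and membrane dipeptidase cleaves dipeptides, glutathione breakdown products and the leukotriene D4. In the GRCm38 assembly, annotated by GENCODE release M21, Fgf10 lies on chromosome 13 from 118669791 to 118792115 on the plus strand, Acss3 on chromosome 10 from 106933517 to 107123668 on the minus strand, Dpep1 on chromosome 8 from 123186242 to 123201812 on the plus strand, and Inmt on chromosome 6 from 55170626 to 55175043 on the minus strand.

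The members carried the transcripts of fibroblasts. At least 2 of the 8 fibroblast markers (Pdgfra, Dcn, Col1a1, Col1a2, Col3a1, Tcf21, Lum, Abca8a) were detected in 1688 of the 1697 members, and the summed level of these 8 genes was between 8018 and 10193 CPM across libraries. It was between 6156 and 9023 in the 11850 other fibroblast nuclei, which passed the same limits with at least 2 fibroblast markers but were not members. Of these other nuclei 22.0%, 5.90%, 1.79%, 35.4% and 43.8%, in library order, also had at least 2 of the rule's 5 genes. The limits on the Pi16, Kcnip1 and Dkk3 sets kept them out of the members. The rule itself removes nuclei with Cdh5, Csf1r or Rgs5 and those rich in Ttn, Ryr2 and Trdn, from both populations. Endothelial and pericyte markers were lower in the members than in the other fibroblast nuclei: the 6 endothelial markers summed to between 72.4 and 174 CPM in the members against 289 to 423, and the 5 pericyte markers to between 185 and 212 against 270 to 353. The 6 cardiomyocyte markers, among them the capped Ttn, Ryr2 and Trdn, overlapped, at 670 to 1247 against 844 to 1458. The T cell list summed to between 8.81 and 24.8 CPM against 8.27 to 32.2, with Cd3e at 0 in the members. The B cell list summed to between 2104 and 2598 against 2052 to 2532, nearly all of it Ebf1, which fibroblasts also express, with Pax5 at 0 in the members. The adipocyte list ran the other way and summed to 56.9, 232, 37.2, 55.7 and 21.2 CPM in the members against 11.8 to 22.7 in the other fibroblast nuclei. The macrophage list overlapped between the populations (20.3 to 149 against 67.8 to 142 CPM), and the mesothelial list varied by library, at 36.9, 96.2, 6.21, 3.28 and 86.3 CPM in the members and 12.7, 30.5, 29.9, 12.1 and 103 in the other nuclei. The doublet caller marked 52 members.

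The libraries gave very different numbers of members, and the 5 genes of the rule themselves varied between libraries in fibroblasts of every kind. Members numbered 377, 206, 67, 532 and 515, which is 13.6%, 4.50%, 1.73%, 14.7% and 17.4% of the nuclei that passed the limits on other cell types. The exact (Clopper-Pearson) 95% intervals, which cover counting error only, were 12.4 to 14.9, 3.92 to 5.14, 1.34 to 2.19, 13.6 to 15.9 and 16.0 to 18.8. Both libraries labelled Tg female were low, and the library labelled nTg female 1 was close to those labelled Tg male. Between the libraries labelled Tg the share was 3.11% ± 1.96 (SD, n = 2) for female libraries against 16.0% ± 1.86 for male ones, a difference of -12.9 percentage points with a two-sided exact permutation p of 0.3333, the smallest that 2 against 2 libraries allow. With the library labelled nTg female 1 counted among the females the difference was -9.42 points (exact permutation p = 0.2). The median depth of the nuclei behind these shares was 2853, 2445.5, 1986.5, 2647 and 2518.5 UMIs, lowest in the libraries labelled Tg female, and that of the members 3162, 2708.5, 2129, 2651 and 2476. With every nucleus thinned to 1000 UMIs the difference was -13.7 points.

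The share rests on transcripts of the rule's own genes, so the level of these genes over all 13538 fibroblast nuclei stands beside it. Fgf10 stood at 32.2, 34.0, 12.3, 61.1 and 81.8 CPM there. Acss3 was at 169, 48.2, 15.9, 204 and 244, and Lvrn at 251, 75.9, 37.2, 524 and 714. Dpep1 was at 432, 155, 132, 466 and 546, and Inmt at 45.3, 24.5, 7.19, 31.3 and 58.4. For Acss3, Lvrn and Dpep1 both libraries labelled Tg female lay far below the other 3, and for Lvrn both libraries labelled Tg male lay above all the rest. The edgeR quasi-likelihood test on summed counts called 20 of 16153 genes (0.124%), 2 higher (0.0124%) and 18 lower (0.111%) in the females, between the sexes of the libraries labelled Tg over all fibroblast nuclei, at a Benjamini-Hochberg adjusted p under 0.05. Lvrn fell by 3.53 ± 0.37 (SE) on the log2 scale in the female against the male libraries (11.6-fold, adjusted p = 0.0207) and Dpep1 fell by 1.91 ± 0.20 (adjusted p = 0.0207). Acss3 at -2.87 (adjusted p = 0.0746), Fgf10 at -1.69 (0.247) and Inmt at -1.55 (0.391) did not pass the threshold in edgeR. Leaving out 1 of the 4 libraries leaves 1 sex with 1 library. In such fits Acss3 lay between -3.95 and -2.28 and Fgf10 between -2.68 and -1.14. With all 5 libraries and no term for genotype, Lvrn was at -2.38 (edgeR adjusted p = 0.480) and Dpep1 at -1.12 (0.683), and neither was called.

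Some of these genes also differed in nuclei that the rule left out. Nuclei with at least 2 genes of the Pi16 set detected were compared in the same way, and there edgeR gave Lvrn at -3.56 (adjusted p = 0.000436), Acss3 at -3.14 (0.00287) and Dpep1 at -2.22 (0.000617), while Fgf10 (0.176) and Inmt (0.0871) did not pass. In nuclei with at least 2 genes of the Kcnip1 set it gave Lvrn at -3.65 (adjusted p = 0.000998), Acss3 at -3.40 (0.00203), Dpep1 at -1.62 (0.00361) and Fgf10 at -1.78 (0.0188), while Inmt (0.213) did not pass. Lower levels of Lvrn, Acss3 and Dpep1 in the libraries labelled Tg female were thus measured in fibroblast nuclei of other kinds too, and the number of members per library cannot be told apart from the level of these genes in all fibroblasts.

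Within the members, detection was uneven among the 5 genes. Dpep1 was detected in 86.3% of members, Lvrn in 70.3%, Acss3 in 56.7%, Fgf10 in 19.4% and Inmt in 18.9%. Exactly 2 of the genes were detected in 1005 members, 3 in 525, 4 in 150 and all 5 in 17. The threshold of 2 genes can be read from the nuclei on either side of it, with no test since it chose them: the mean level of Acss3 was 58.8 CPM in nuclei with 1 of the 5 genes and 281 in those with 2, that of Lvrn 256 and 553, that of Dpep1 368 and 691, that of Fgf10 14.5 and 100.5, and that of Inmt 20.2 and 57.4. The 3831 nuclei with at least 2 of the genes were reduced to 44.3% by the other sets: 949 carried too many genes of the Pi16 set, 1265 of the Kcnip1 set and 273 of the Dkk3 set, some of them of more than 1 set.

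The levels that chose the members are given here as a description. Fgf10 was at 89.7, 249, 180, 162 and 187 CPM in the members and at 20.9, 20.7, 8.37, 38.9 and 54.1 in the other fibroblast nuclei. Acss3 was at 461, 347, 248, 404 and 445 in the members, Lvrn at 534, 325, 397, 833 and 1115, Dpep1 at 889, 543, 763, 806 and 852, and Inmt at 147, 156, 99.3, 61.0 and 124. Acss3 was highest in the nTg female library and Lvrn in the second male one, while Fgf10 was lowest in the library labelled nTg female 1. To see how the genes go together, each was left out of the rule in turn. The gene left out was higher in the nuclei chosen by the other 4 than in the remaining fibroblast nuclei in all 5 libraries, for all 5 genes: Fgf10 by 2.49- to 5.40-fold, Acss3 by 1.74- to 5.30-fold, Lvrn by 1.39- to 4.49-fold, Dpep1 by 1.55- to 6.87-fold and Inmt by 1.96- to 9.73-fold. Both libraries labelled Tg female gave higher ratios than the other 3 for Fgf10, Acss3, Lvrn and Dpep1, and for Inmt the library labelled Tg female 2 gave the highest. The remaining nuclei included those with at least 2 of the genes that the other sets kept out. These were a smaller share in the libraries labelled Tg female, as given above, and their part was not tested.

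**Figure D1:**
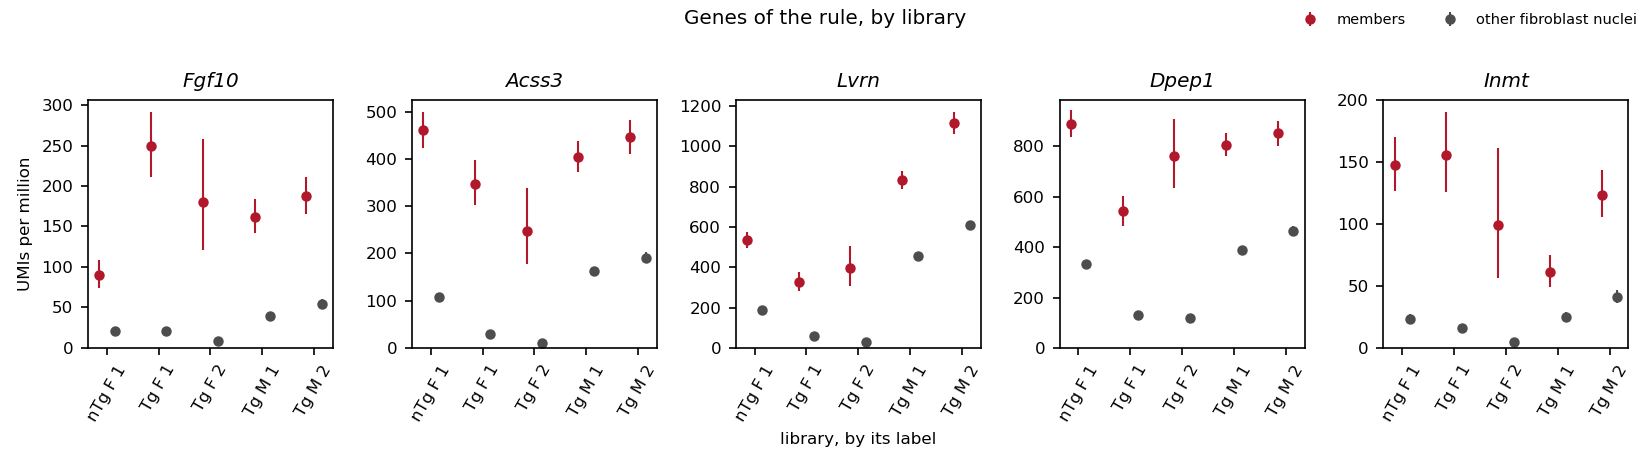
Levels of the 5 genes of the rule in CPM (y axes, linear, each from 0) in each library by its label (x axis), in the members (red) and the other fibroblast nuclei (grey). Bars are exact Poisson 95% intervals of the summed counts. Members stand above the other nuclei in every library because these genes chose them, and in the other nuclei both libraries labelled Tg female are low for Acss3, Lvrn and Dpep1.

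Free RNA can place a UMI in a nucleus that does not express the gene, so the positive part of the rule was also applied to other cell types. At least 2 of the 5 genes were detected in 6 of 8266 endothelial nuclei (0.0726%), in 1 of 2744 macrophage nuclei (0.0364%) and in 110 of 7135 cardiomyocyte nuclei (1.54%), whose median depth of 6072.5 to 8415 UMIs was above that of the fibroblasts. Among all fibroblast nuclei the share was 35.8%, 11.4%, 3.96%, 48.1% and 56.9%. After thinning to 1000 UMIs it was 15.7%, 4.56%, 1.24%, 23.0% and 30.2%, against 0.113% in the cardiomyocyte nuclei. The endothelial and macrophage nuclei were chosen to hold fewer than 2 fibroblast markers. This limit may remove nuclei with much free fibroblast RNA, so their shares may understate it. The cardiomyocyte nuclei had no such limit. At equal depth the fibroblast shares were above those of the cardiomyocyte nuclei in all 5 libraries.

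To ask whether the rule marks a group of nuclei that also stands apart by its other genes, the nuclei that passed the limits with at least 2 fibroblast markers, together with the members, were clustered without any of the rule's genes. Of 17 clusters, the fourth largest, with 1592 nuclei, held 538 members, which is 31.7% of all members and 33.8% of the cluster. Its leading genes included Igfbp3, Thsd7b, Gria4, Shisa9, Vit and Nkain2, and of the rule's genes, which were left out of the clustering, Fgf10 ranked 2nd by fold over the other clusters, Inmt 8th, Acss3 14th, Dpep1 53rd and Lvrn 281st. Most members lay elsewhere: 393 in cluster 1 (led by Inpp4b and Myoc), 290 in cluster 2 (Kcnip1 and Hsd11b1), 329 in cluster 3 (Grm8 and Kcnip1), 43 in cluster 5 (Cd248 and Dpp4, genes of adventitial fibroblasts) and 27 in cluster 6 (Cilp and Postn, genes of activated fibroblasts). The cluster led by Igfbp3 and Fgf10 is named here by its leading genes only. At a finer resolution of 1.0 a cluster led by Cxcl14, Ccl11 and Apoe separated from one led by Fgf10, with Lvrn ranked 7th and Fgf10 40th in the former and Fgf10 1st and Lvrn 371st in the latter.

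In that cluster Fgf10 stood at 131, 157, 58.2, 242 and 313 CPM over all its nuclei, members or not. Inmt was at 137, 109, 45.0, 120 and 168 there, and Acss3 at 560, 175, 93.9, 499 and 529. Lvrn, at 441, 133, 77.0, 603 and 942, followed the library more than the cluster, since the libraries labelled Tg male held it at like levels in clusters 1 to 3. The cluster made up 11.4%, 12.8%, 8.60%, 14.0% and 11.96% of the clustered nuclei in the 5 libraries. Each gene was centred and scaled within each library before clustering, which can even out such shares, so nothing is read from their likeness. The share of the cluster's nuclei that the rule took as members was 47.7%, 21.8%, 11.9%, 44.4% and 47.9%. Of each library's members, 30.5%, 47.6%, 46.3%, 31.4% and 24.7% lay in it, so the members of the libraries labelled Tg female held more of this cluster.

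**Figure D2:**
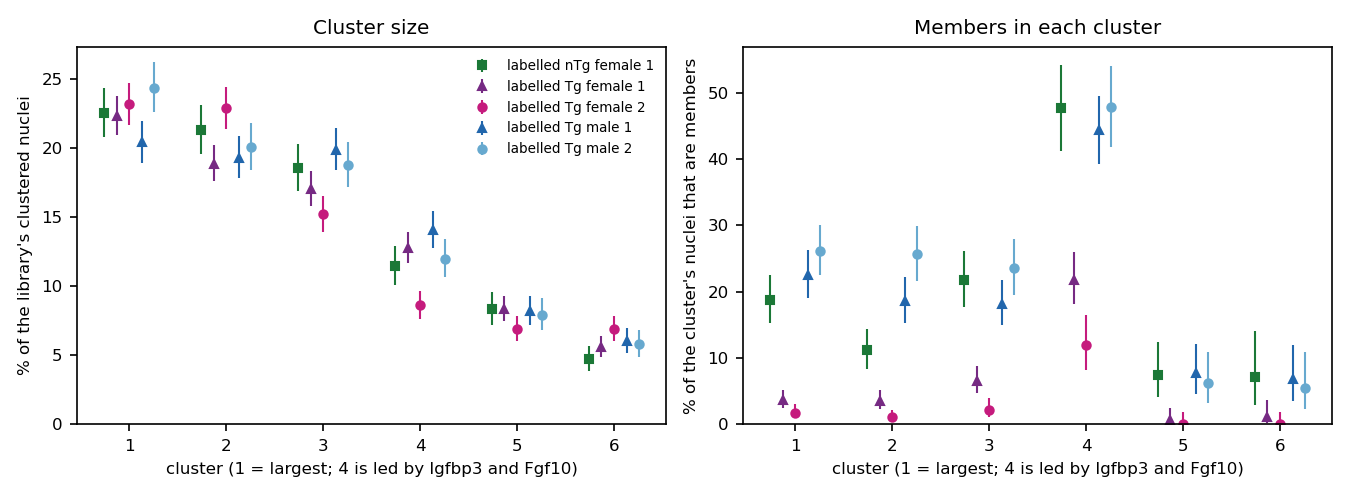
Left, share of each library's clustered nuclei in the 6 largest clusters; right, share of each cluster's nuclei that are members; both in percent with exact binomial 95% intervals, coloured by library label. Cluster 4 takes between 8.60% and 14.0% of the nuclei of a library, while its members reach 47.9% in Tg male 2 and only 11.9% in Tg female 2, by label. Genes were scaled within each library before clustering, which can even out the shares on the left.

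**Figure D3:**
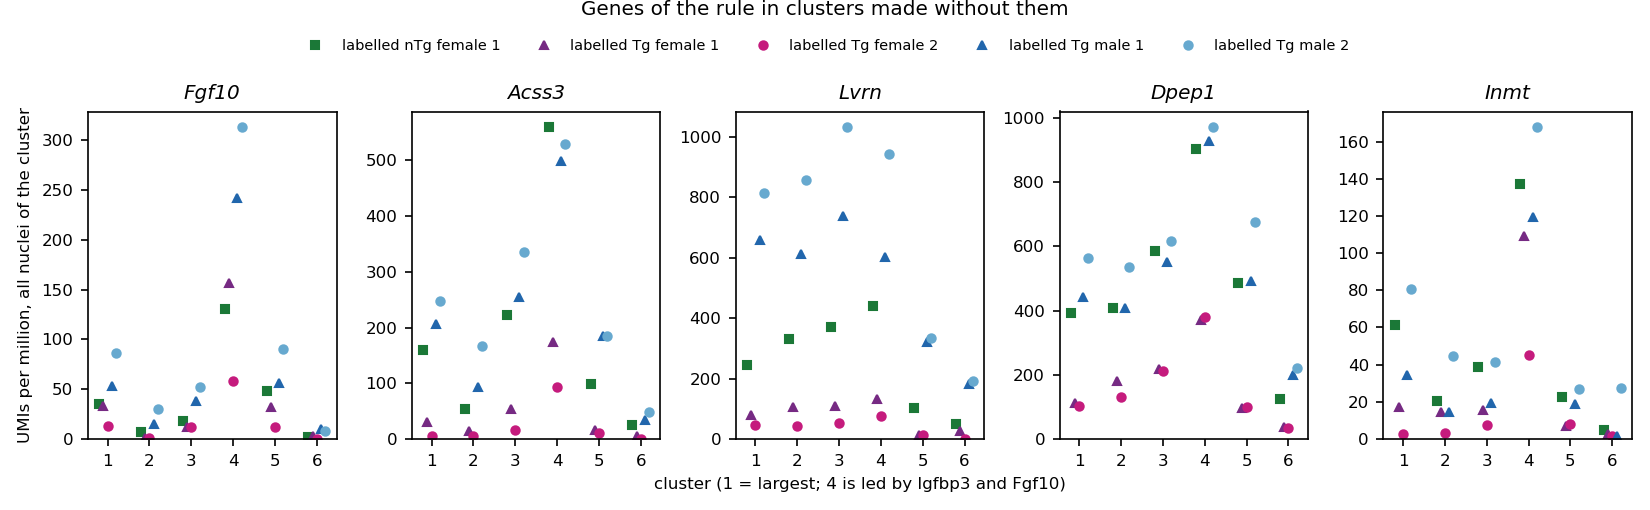
Levels of the 5 genes of the rule in CPM (y axes, linear) over all nuclei of the 6 largest clusters (x axes), 1 point per library, in clusters made without these genes. Fgf10 and Inmt are highest in cluster 4 in all 5 libraries, while Lvrn separates the libraries labelled Tg male from those labelled Tg female in each cluster.

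The members were not uniform, and the genes of the rule stood at different levels in members of different clusters. Members inside the Igfbp3 and Fgf10 cluster had Fgf10 at 302 ± 109 CPM (SD, n = 5 libraries), against 184 ± 120 in cluster 1, 43.5 ± 36.2 in cluster 2 and 45.2 ± 36.1 in cluster 3. Acss3 was at 571 ± 196 there and at 268 ± 140, 219 ± 49.4 and 333 ± 92.6 in clusters 1 to 3, and Inmt at 199 ± 37.0 against 113 ± 51.2, 50.4 ± 46.6 and 79.4 ± 53.4. Among these 4 clusters all 3 genes had their highest mean in the Igfbp3 and Fgf10 cluster and their lowest in cluster 2. Lvrn ran the other way, at 590 ± 331 in the Igfbp3 and Fgf10 cluster and 845 ± 289 in cluster 2, and its means lay within the spread between libraries. Dpep1 was at 999 ± 228 there and at 661 ± 135, 789 ± 46.8 and 723 ± 175 in clusters 1 to 3. Complement C3 was at 420 ± 95.03 in members of the Igfbp3 and Fgf10 cluster, 264 ± 57.3 in those of cluster 1 and 123 ± 68.2 in those of cluster 2. These clusters were formed on genes such as C3, so the values describe the members and carry no test. A further 9 nuclei, all of them members, formed the smallest cluster, led by the adipocyte genes Car3, Cidec and Plin1.

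The other genes of the members were then set against the other fibroblast nuclei library by library. The rule chose the members on this contrast, so it is a description with no test. Among 10850 genes, 11 (0.101%) were at least 2-fold higher in the members in each of the 5 libraries and 27 (0.249%) at least 2-fold lower. Without a size limit 691 genes (6.37%) were higher and 1238 (11.4%) lower in each library, and the median log2 ratio over all genes was -0.06. The members thus differed from other fibroblasts by few genes of large size.

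Apart from Car3, described below, the named genes on the higher side had mean log2 ratios of 0.95 to 1.51. Vit, which encodes the matrix protein vitrin, was at 197, 312, 230, 256 and 267 CPM in the members and at 91.9, 112, 56.0, 120 and 112 in the other fibroblast nuclei, a mean log2 ratio of 1.38. Slit3, a secreted guidance cue of the Slit family, was at 1070, 1517, 819, 1664 and 1464 against 557, 598, 294, 841 and 892 (1.09). C3, the central component of complement, was at 205, 287, 316, 222 and 297 against 129, 96.9, 62.1, 129 and 243 (1.12). For Vit and Slit3 every library's members lay above every library's other nuclei except that Slit3 in members of the library labelled Tg female 2 lay below the other nuclei of both libraries labelled Tg male, and for C3 the 2 ranges overlapped.

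Complement component C4b stood at 32.9, 31.5, 112, 56.4 and 40.2 CPM against 14.8, 10.7, 13.4, 22.1 and 24.1 (1.51), and Cntfr, the ligand-binding chain of the ciliary neurotrophic factor receptor, at 82.5, 41.5, 55.9, 64.3 and 81.2 against 31.8, 22.1, 11.98, 32.7 and 39.3 (1.27). For both genes the members of every library lay above the other nuclei of every library. Ggt5, a surface enzyme that, like Dpep1, trims glutathione conjugates and leukotrienes, was at 180, 141, 180, 180 and 208 against 110, 63.5, 51.7, 110 and 130 (1.00). Col6a6, a chain of collagen VI, was at 169, 275, 130, 301 and 255 against 96.4, 111, 60.2, 186 and 142 (0.95). Further genes on this side were Gria4 (1.36), Nkain2 (1.10), Gpc3 (1.08), Eya2 (1.01) and Ces1d (0.98), and the antisense transcripts BB365896 (1.06) and Gm31356 (0.97), whose reads cannot be told apart from those of the genes on the opposite strand, Fam13a and Gpam, since strand is not given in the sources used here.

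Car3, carbonic anhydrase 3, had the highest mean log2 ratio at 5.31, from 34.5, 197, 86.9, 25.6 and 19.0 CPM in the members against 0.52, 0.21, 0.58, 0.15 and 0. It rested on the 9 nuclei of the cluster led by adipocyte genes: without them its ratio was 0.56, and the count of genes at least 2-fold higher in each library was 4. With both populations limited to the 6 largest clusters, Car3 was at 0.04 and Ces1d at 0.34, while Vit was at 1.37, Slit3 at 1.04, C3 at 1.05, C4b at 1.92, Cntfr at 1.42 and Gria4 at 1.39. The members and the other nuclei still differ in their makeup by cluster there. Inside the Igfbp3 and Fgf10 cluster alone the contrasts were smaller, and 4 of the 15 named higher genes were higher in the members of each library. Vit was at 491 ± 74.5 CPM (SD, n = 5) in its members and 357 ± 73.0 in its other nuclei, Slit3 at 1870 ± 483 and 1463 ± 483, and C3 at 420 ± 95.03 and 275 ± 128. Cntfr, at 112 ± 32.5 and 107 ± 45.0, and Nkain2, at 469 ± 102 and 503 ± 268, differed by less than the spread between libraries.

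The lower side held genes of activated fibroblasts and of other cell types. Postn, which encodes periostin and marks activated fibroblasts, was at 11.2, 18.3, 62.1, 9.83 and 13.9 CPM in the members and at 117, 120, 126, 81.1 and 84.7 in the other nuclei (-2.48), and Myh11, a smooth muscle myosin, at 9.61, 13.3, 0, 7.21 and 13.2 against 76.6, 83.9, 25.4, 50.5 and 53.1 (-2.95). Members of each library were below all other nuclei for both. Slc35f1 (-4.72), Cadm2 (-3.94), Kcnma1 (-3.77), Csmd1 (-3.77), Tmem108 (-2.44), Cemip2 (-2.04), Erbb4 (-2.03) and Emcn (-1.87) completed this side. Within the 6 largest clusters Postn (-2.06), Kcnma1 (-2.42), Csmd1 (-2.28), Cemip2 (-1.50) and Erbb4 (-1.53) stayed lower, whereas Slc35f1 was at -0.19, Cadm2 at -0.65, Myh11 at -0.62, Emcn at 0.03 and Tmem108 at 0.80. Several of these genes lead smaller clusters from which the rule took few members: Slc35f1, Csmd1 and Cadm2 led cluster 12 (1 member), Tmem108 and Emcn cluster 8 (5 members), Myh11, Acta2 and Tagln cluster 14 (3 members), and Erbb4 and Kcnma1 cluster 9 (1 member), where Dkk3 and Prg4 of the rule also lead.

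**Figure D4:**
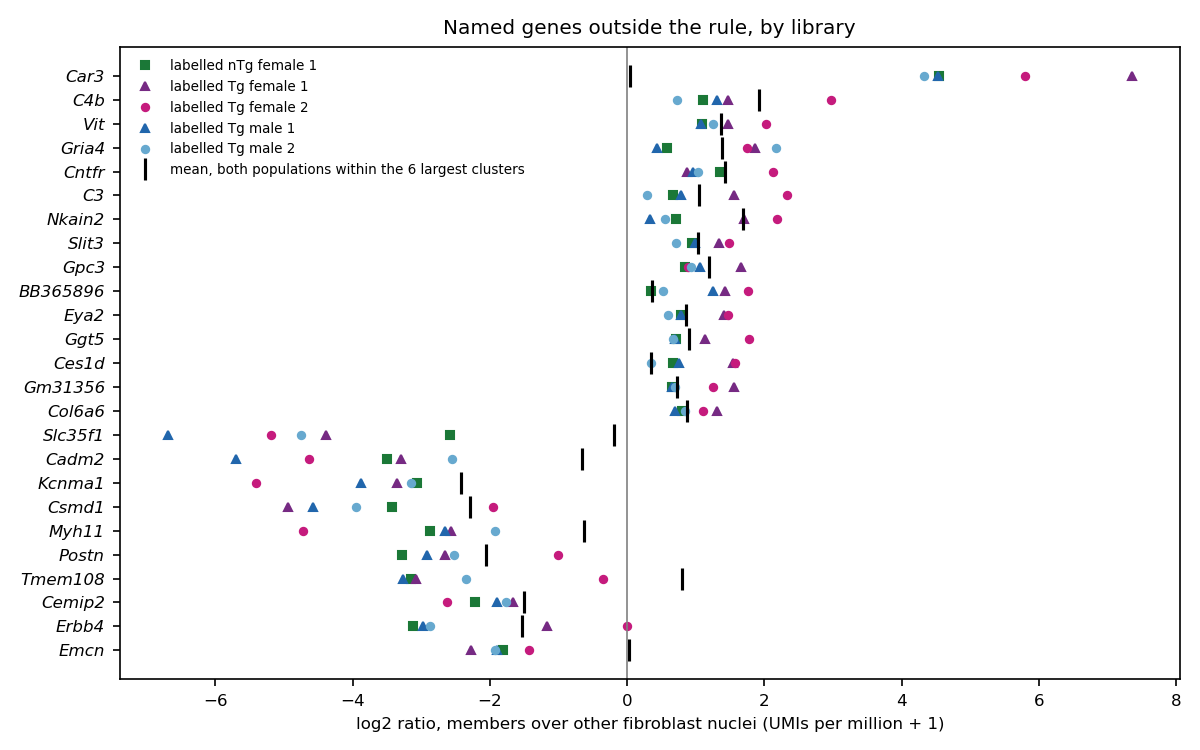
Log2 ratio of CPM, with 1 added, in members over other fibroblast nuclei (x axis) for the named genes outside the rule, 1 point per library; vertical ticks give the mean with both populations limited to the 6 largest clusters. C4b stays at 1.92 and Vit at 1.37 there, while Car3 moves to 0.04 and Tmem108 to 0.80.

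Gene lists place these differences by role, each list by how many of its genes outside the rule with at least 10 CPM were higher or lower in the members of each of the 5 libraries, beside the shares of 6.37% and 11.4% for all genes. In the detoxification list 8 of 15 genes were higher and 0 lower, with a median log2 ratio of 0.29. Fmo2, a flavin monooxygenase, was at 757, 338, 205, 993 and 794 CPM against 497, 206, 162, 770 and 692 in the other nuclei, and the aldehyde oxidases Aox1 (0.43) and Aox3 (1.32), the glutathione transferases Gstm1 (0.29), Gstt1 (0.39) and Mgst1 (0.60), Cyp1b1 (0.54) and Sult5a1 (0.81) were higher too. In the list of complement and immune signals 7 of 14 genes were higher and 2 lower (median 0.27). The classical pathway proteases C1s1 (0.64) and C1ra (0.51), the chemokines Cxcl14 (0.69) and Ccl11 (1.00), C3 and C4b were among the higher ones, and the cytokines Il34 (-1.46) and Kitl (-0.87) the lower ones.

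The myofibroblast list ran the other way, with 0 of 8 genes higher and 7 lower (median -1.38). Acta2, smooth muscle actin, was at 14.4, 13.3, 18.6, 7.21 and 5.12 CPM against 50.1, 47.7, 30.3, 22.5 and 17.7 in the other nuclei, and Tagln (-1.66), Comp (-1.43), Cilp (-0.97), Meox1 (-0.72), Fap (-0.47) and Postn were lower as well. Acta2 and Tagln are also smooth muscle markers, and the summed smooth muscle list was 62.2 to 113 in the members against 113 to 279, so the part of admixed RNA in this difference was not tested. Of 19 collagens Col6a6 was higher and 7 were lower (Col4a2, Col5a1, Col6a2, Col15a1, Col16a1, Col18a1 and Col23a1), with a median of -0.10. Of 23 other matrix genes 6 were higher (Dcn, Nid1, Ogn at 0.64, Fbln1 at 0.64, Fbln5 at 0.63 and Thbs2 at 0.70) and 10 lower, among them Vcan (-0.77) and Mfap5 (-0.61), with a median of -0.08.

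Lists named for the rule's own genes showed less. Of the FGF ligands other than Fgf10, Fgf7, its close relative that uses the same receptor form, was at 48.9, 79.6, 74.5, 39.3 and 32.9 CPM in the members against 33.6, 47.6, 32.6, 17.6 and 15.01 (0.93), and Fgf2 (-0.28) and Fgf16 (-1.23) were lower in each library. The receptors did not separate the populations: Fgfr2 was at 1027, 1080, 1626, 1262 and 1350 against 1025, 1041, 1560, 1265 and 1271, and counts per gene do not tell its splice forms apart. Of 7 genes that FGF signalling induces, Etv5 (-0.40) was lower and none was higher in each library. Of 9 genes of acyl-CoA activation and propionate breakdown, Acsf2 (0.30) and Acadsb (0.15) were higher and Acss1 (-0.42) lower. Of 9 ectopeptidases outside the rule, Ggt5 and Mme (neprilysin; 161, 163, 93.1, 174 and 184 against 112, 81.2, 55.4, 135 and 127) were higher and Dpp4 (-0.65) lower.

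Signalling lists gave mixed counts. Of 5 eicosanoid genes the prostaglandin F receptor Ptgfr (0.86) and the prostaglandin E synthase Ptges (0.47) were higher and Ptgis (-0.53), Ptgs1 (-2.31) and Ptgds (-1.38) lower. Among hormone receptor and growth factor genes Igf1 (0.40), Lepr (0.54) and Insr (0.10) were higher and Igf2 lower. Bmper, a secreted BMP modulator, was at 647, 629, 447, 864 and 939 CPM against 471, 355, 219, 550 and 672 (0.69), and with Ltbp1 (0.11) made 2 higher genes of 12 in the TGF-beta and BMP list, where Tgfb1 (-1.70) and Ltbp2 (-2.31) were lower. Of 15 guidance genes Slit3 and Slit2 (0.32) were higher and 4 lower (Ntn1, Unc5b, Sema3c and Plxna2). Of 9 retinoid genes Aldh1a1 (0.16), which makes retinoic acid, and Adh1 (0.68) were higher and Rarb (-0.39) lower. Of 6 Wnt genes Sfrp1 (0.43) was higher and Wnt9a lower, and of 16 transcription factors of position and lineage Ebf2 (0.19) and Foxp2 (0.20) were higher and Meox1 lower.

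To compare the sexes within the members, UMIs were summed per library and the 2 libraries labelled Tg female were tested against the 2 labelled Tg male, with the library labelled nTg female 1 given beside them. The edgeR quasi-likelihood test called 32 of 10602 genes (0.302%), 12 higher (0.113%) and 20 lower (0.189%) in the female libraries, and 869 genes had an unadjusted p under 0.05. Of these 32, 6 were X- or Y-linked sex genes such as Xist, at the levels given above, and the Y-linked Uty, at 0.801, 0, 0, 210 and 177 CPM. In 25 of the other 26 genes all 3 female libraries lay on one side of both male libraries. These genes were called on the libraries labelled Tg, so mainly the library labelled nTg female 1 was free in this count. The like share over all genes was not measured. The library labelled nTg female 1 was nearer to the mean of the libraries labelled Tg female for 11 of these 26 genes and nearer to the male mean for 15. The count rests on single libraries, since without the library labelled Tg female 2 it was 89 and without that labelled Tg male 2 it was 8.

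C7, a component of the complement membrane attack complex, had the largest fall among the called genes with counts in all 5 libraries. Its level in the members was 61.7, 14.9, 24.8, 237 and 472 CPM, and all 3 female libraries were below both male ones. It fell by 4.39 ± 0.48 (SE) on the log2 scale (edgeR adjusted p = 0.0033), and without the library labelled Tg female 1 the call was lost (edgeR adjusted p = 0.151). Fmo2, with the levels given above, fell by 1.68 ± 0.26 (adjusted p = 0.0322), with the library labelled nTg female 1 at the level of the males. Tox, a nuclear factor best known from T cells, was at 186, 111, 86.9, 303 and 316 and fell by 1.61 in edgeR (adjusted p = 0.0164), Chrd, the BMP antagonist chordin, was at 69.7, 24.9, 24.8, 87.2 and 87.0 (-1.84, adjusted p = 0.04), and Ifi211, an interferon-inducible gene, was at 120, 36.5, 55.8, 135 and 149 (-1.80, adjusted p = 0.0322). Fmo2 and Tox each lost the call without either library labelled Tg male, and Chrd and Ifi211 without Tg female 1 or without either male library. Clstn2 was at 10.4, 1.66, 0, 38.7 and 43.2 in the members (edgeR adjusted p = 0.0245), with 1 and 0 UMIs behind the female values, so no fold is given.

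On the side higher in the female libraries, Col14a1, a fibril-associated collagen, was at 137, 407, 298, 101 and 42.4 CPM in the members. It rose by 2.29 ± 0.34 (SE) on the log2 scale (edgeR adjusted p = 0.0245), with all 3 female libraries above both male ones, and lost the call without the library labelled Tg female 1 or that labelled Tg male 2. Erbb4, a neuregulin receptor, was at 39.3, 94.6, 86.9, 16.4 and 11.7 and rose by 2.66 ± 0.32 (adjusted p = 0.00638). Acsl1, a long-chain acyl-CoA synthetase, was at 61.7, 169, 86.9, 28.8 and 30.7 and rose by 2.21 in edgeR (adjusted p = 0.0164). Erbb4 lost the call without the library labelled Tg female 1 or without that labelled Tg male 2. It also lost the call without the 9 nuclei led by adipocyte genes (edgeR adjusted p = 0.162). Acsl1 lost its call without the 9 nuclei (0.91, edgeR adjusted p = 0.618), without the library labelled Tg female 1 (1.47, 0.272) and without either male one (0.185 and 0.225), and among members with at least 3 of the rule's genes it was at -0.88.

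Car3 at 34.5, 197, 86.9, 25.6 and 19.0 CPM (2.79, edgeR adjusted p = 0.00815) and Plin1, which coats fat droplets, at 10.4, 61.4, 18.6, 6.56 and 3.66 (3.17, adjusted p = 0.046) were highest in the library labelled Tg female 1, beside an adipocyte marker sum of 232 CPM there. Without that library neither was called, with Car3 at 1.87 (edgeR adjusted p = 0.234) and Plin1 at 1.75 (0.619). The part of adipocyte RNA in the 2 genes was not tested beyond the removal of 9 nuclei given below. Leaving out either male library also ended both calls. Without the 9 nuclei of the cluster led by Car3, Cidec and Plin1 both genes fell below the filter on low counts and were not tested. There 31 genes were called, 8 higher and 23 lower in the female libraries. The 9 nuclei numbered 2, 3, 1, 2 and 1 in library order, or 0.531%, 1.46%, 1.49%, 0.376% and 0.194% of each library's members. Of the clustered nuclei they made up a mean of 0.0592% in the libraries labelled Tg female and 0.0599% in those labelled Tg male.

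**Figure D5:**
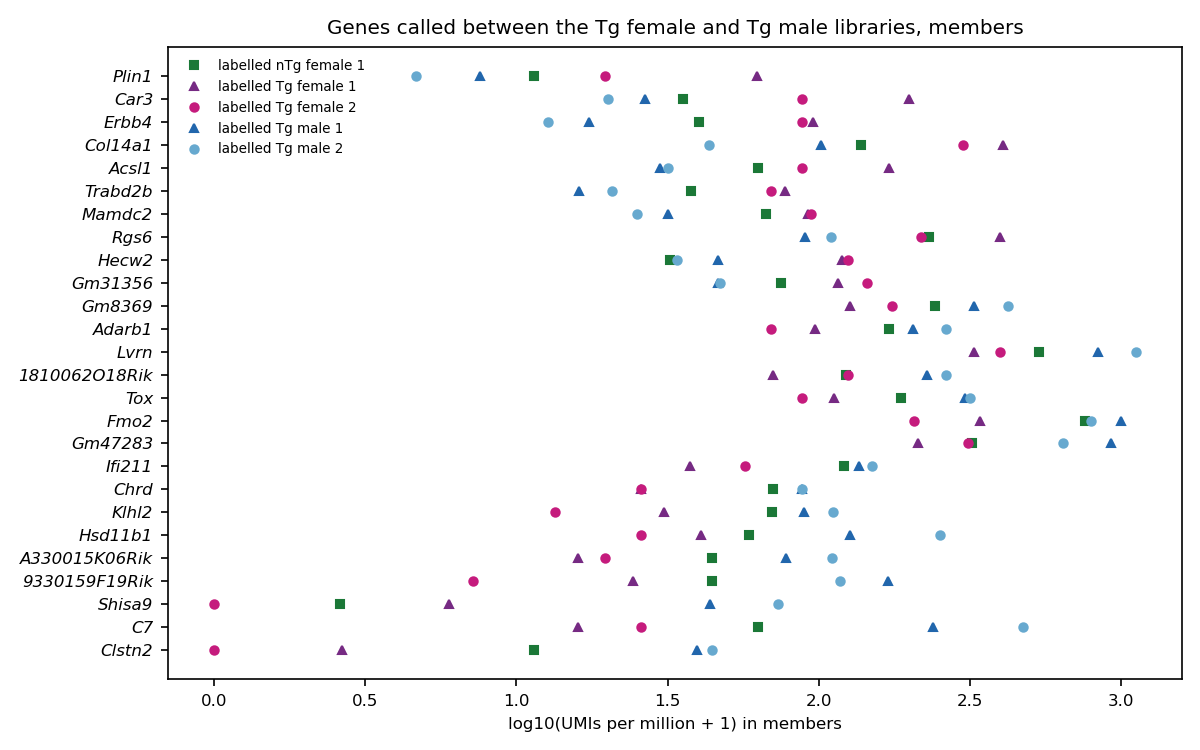
Level in the members, as log10 of CPM plus 1 (x axis), of the 26 genes outside the X- and Y-linked ones that were called between the libraries labelled Tg female and Tg male, 1 point per library. All 3 female libraries lie on one side of both male libraries for 25 of them, but the difference between the libraries labelled Tg chose these genes. C7 runs from 14.9 in the library labelled Tg female 1 to 472 in that labelled Tg male 2.

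Of the rule's genes, Lvrn was called within the members too (-1.50, edgeR adjusted p = 0.0333), and Hsd11b1, which the rule limits, at -2.41. Fgf10 (0.32, adjusted p = 0.812), Acss3 (-0.50, 0.571), Dpep1 (-0.42, 0.72) and Inmt (0.54, 0.783) were not called. The rule sets a floor under these genes within the members, so nothing is read from their differences there. Lvrn lost its call without the library labelled Tg female 1 or without either male one.

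The lists are read beside all 10602 genes, of which edgeR had 869 at an unadjusted p under 0.05 and DESeq2 called 27. In the detoxification list 0 genes rose and 1 of 16 (Fmo2) fell, with a median of -0.25 against 0.01 for all genes. Among collagens 1 of 19 (Col14a1) rose and 0 fell (median 0.08), and in the complement and immune list 0 rose and 1 of 13 (C7) fell (median -0.13). In edgeR 0 of the 4 FGF ligands, 22 other matrix genes, 9 retinoid genes and 8 fibroblast markers were called, with 2, 3, 3 and 0 of them at an unadjusted p under 0.05, and DESeq2 called 1 of these genes, Aldh1a1. Of 13 glucocorticoid-induced genes edgeR called 0, with 7 at an unadjusted p under 0.05 and a median log2 difference of -1.09, and DESeq2 called 2, Zbtb16 and Fkbp5. Zbtb16 was at 2395, 596, 1160, 2405 and 1982 CPM in the members (edgeR adjusted p = 0.12), and Fkbp5 at 850, 294, 515, 802 and 856 (0.137). Tsc22d3, also called GILZ, was at 377, 129, 161, 349 and 247 (0.12). For all of these the libraries labelled Tg female were lowest, and that labelled nTg female 1 was as high as the male ones.

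Because the rule admitted different nuclei in each library, the sexes were also compared over all 1592 nuclei of the Igfbp3 and Fgf10 cluster, which was made without the rule's genes. There the edgeR test called 106 of 10056 genes (1.05%), 27 higher (0.268%) and 79 lower (0.786%) in the libraries labelled Tg female. Lvrn fell by 2.88 ± 0.30 (SE) on the log2 scale (7.36-fold, adjusted p = 4.23e-05), Acss3 fell by 1.94 ± 0.27 (3.83-fold, adjusted p = 0.000956) and Dpep1 fell by 1.40 ± 0.24 (adjusted p = 0.00564). Fgf10 at -1.33 ± 0.31 (edgeR adjusted p = 0.0501) and Inmt at -0.85 (0.347) did not pass. With the library labelled nTg female 1 added and a term for genotype, Fgf10 was at -1.34. That term fits this 1 library by itself, so the added library says nothing further on the sexes. The library labelled nTg female 1 lay with the male libraries for Acss3 and Dpep1, and between the sexes for Lvrn. With 1 of the 4 libraries left out, Lvrn lay between -3.40 and -2.54 and Acss3 between -2.53 and -1.60. Dpep1 was not called without either library labelled Tg male. With all 5 libraries and no term for genotype none of the 3 was called by edgeR. Lvrn was at -1.83 (edgeR adjusted p = 0.169), Acss3 at -0.90 (0.725) and Dpep1 at -0.80 (0.582).

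Other genes of this cluster moved as in the members, from nuclei that are in part the same. C7 was at 111, 53.8, 48.8, 311 and 798 CPM over the cluster, and fell by 3.46 on the log2 scale in the female libraries. Tox was at 227, 117, 86.3, 410 and 456 (-2.11), and Ifi202b, an interferon-inducible gene, at 123, 30.7, 56.3, 214 and 749 (-3.60). Fkbp5 was at 932, 279, 345, 881 and 1000 (-1.65, edgeR adjusted p = 0.00175), Zbtb16 at 2498, 562, 939, 2384 and 1962 (-1.60, 0.0143) and Tsc22d3 at 327, 129, 139, 384 and 233 (-1.27, 0.016), so 3 of 13 glucocorticoid-induced genes fell and 0 rose (median -1.001). These 3 were again as high in the library labelled nTg female 1 as in the males, and without the library labelled Tg male 1 neither Zbtb16 nor Tsc22d3 was called, nor was Zbtb16 without that labelled Tg male 2.

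Fgf7 was at 95.05, 145, 145, 63.2 and 59.2 over the cluster and rose by 1.18 ± 0.23 in the female libraries (edgeR adjusted p = 0.0156), opposite in sign to Fgf10, but was not called without either library labelled Tg male. Col14a1 was at 209, 582, 415, 179 and 77.6 (1.89, edgeR adjusted p = 0.00412) and Postn at 13.2, 39.3, 46.9, 12.6 and 4.23 (2.16, 0.023), and both lost the call without the library labelled Tg male 2. Ggt5 was at 198, 102, 99.5, 193 and 247 and fell by 1.17 (edgeR adjusted p = 0.0143), with the same loss. Of the 99 called genes in the cluster that are not sex-linked, all 3 female libraries lay apart from both male ones for 80. Here too the libraries labelled Tg chose the genes, and the like share over all genes was not measured. The library labelled nTg female 1 was nearer the female mean for 43 of the 99 and nearer the male mean for 56.

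A difference of the sex effect between members and other fibroblast nuclei was tested as an interaction in edgeR, with each library as a block. It was called for 52 of 14881 genes (0.349%), 47 of them (0.316%) with a more positive female-minus-male difference in the members. Of these, 8 were genes of the rule, whose difference the rule truncates, and 44 lay outside it, 40 with a more positive and 4 with a more negative difference, the latter direction holding for 5 (0.0336%) of all genes tested. C3 was among them: in the members it stood at 205, 287, 316, 222 and 297 CPM with little difference between the sexes, while in the other fibroblast nuclei it stood at 129, 96.9, 62.1, 129 and 243, with both libraries labelled Tg female lowest. The interaction of C3 was 1.26 on the log2 scale (edgeR adjusted p = 2.97e-11). The members of the libraries labelled Tg female held more of the Igfbp3 and Fgf10 cluster, as given above, where C3 was higher, and the part of this makeup in the interaction was not tested.

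As the only library with the nTg label, nTg female 1 could not be tested against the rest. Among 4436 genes with at least 50 CPM in either, 16 (0.361%) were at least 2-fold higher in its members than the mean over those labelled Tg and above all 4, and 12 (0.271%) at least 2-fold lower and below all 4. The same count for each other library against the remaining 4 gave 100 higher and 57 lower for Tg female 1 by label, 236 and 218 for number 2 of that sex, 21 and 18 in the first male library and 30 and 37 in the other, so the library labelled nTg female 1 stood apart by fewer genes than each of the others. These counts also reflect the UMIs summed over members, 1248141, 602666, 161147, 1525219 and 1367261 in library order. Errfi1, an inhibitor of the EGF receptor, was at 578 CPM in its members (exact Poisson 95% interval 536 to 621) against 44.8, 112, 230 and 145. Glul, glutamine synthetase, was at 197 against 92.7 ± 58.7 (SD, n = 4), Adamtsl2, a microfibril-associated protein, at 182 against 70.6 ± 17.2, and Socs2, a feedback inhibitor of growth hormone signalling, at 278 against 134 ± 21.4. Medag was lower there, at 120 against 245 ± 52.3, as was Cpt1a, the carnitine transferase of fatty acid import, at 32.8 against 82.3 ± 27.8. Fgf10, counted among the 12 lower genes, was at 89.7 (73.9 to 108) against 194.5 ± 37.8. It is a gene of the rule, so nothing is read from its level in the members. In the Igfbp3 and Fgf10 cluster, chosen without Fgf10, its level of 131 in this library lay within the range of the libraries labelled Tg.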

How the data were processed

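Nuclei of adult mouse hearts were counted by the authors with Cell Ranger 7.0.0, per the file headers, on the mm10 genome, per the submitters' processing notes. The deposited files hold raw UMI counts per gene and nucleus, with 32285 genes, and were not normalized. Counting settings such as strand are not given in the sources used here. Of 8 matrices, 5 whose columns equal their own barcodes were used.

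The members and the gene lists were chosen with earlier results of these data known. Counts were summed per library and population and given per 1000000 UMIs (CPM), with 1 added before log2 ratios. Sums were tested with edgeR 4.0.16 (quasi-likelihood, TMM scaling, default filter on low counts) in R 4.3.3, with Benjamini-Hochberg adjustment over all genes tested and a threshold of 0.05. The fits used the 4 libraries labelled Tg, 2 of each sex. DESeq2 1.42.0 was an alternative. Shares were compared by exact permutation over libraries. Nuclei were clustered with scanpy 1.11.5 (2000 variable genes outside the rule, 20 components, 15 neighbours, Leiden resolution 0.6). Ccna2, sex-linked and mitochondrial genes were also left out, and each gene was centred and scaled within each library first. The fits over all fibroblast nuclei and over the cluster were chosen after seeing the data. Doublets were marked, not removed, by scrublet at an expected 6%. In the library labelled Tg female 2, where the caller marked few or none, the top 6% of scores was used. Named genes were those of the 15 highest and 10 lowest mean log2 ratios to other fibroblast nuclei, in the same direction in all 5 libraries and with at least 50 CPM. For the sexes they were the 5 highest and 5 lowest called genes, the rule's genes and the leading list genes. C7, Col14a1, Fmo2, Acsl1, Tox, Rgs6, Chrd, Ifi211, Fkbp5, Zbtb16, Tsc22d3, Ifi202b, Ggt5, Fgf7 and Postn in the sex comparisons, and Errfi1 and the genes beside it, were named after their values were seen. Fits were tested on simulated data with 200 genes changed. The fit in the members recovered 26% of 2-fold and 68% of 4-fold changes. The fit over all fibroblast nuclei recovered 47% and 96%, and that of the interaction 1% and 18%. False calls made up 3.09%, 8.92% and 9.52% of the calls, in this order. Of the feature IDs, 32158 matched GENCODE release M21. Some members of the gene lists are not reported here.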

Additional observations from a re-analysis of the deposited data

Results flagged for a closer look

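For 7 genes the difference between the libraries labelled Tg female and Tg male was itself different in the members from that in the other fibroblast nuclei of the same libraries, by the interaction term in edgeR. They are the 5 with the lowest adjusted p outside the rule and those among the named genes of the sex comparison. Beside all of them stands that 47.6% and 46.3% of the members of the libraries labelled Tg female lay in the Igfbp3 and Fgf10 cluster against 31.4% and 24.7% in those labelled Tg male, whose part was not tested.

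Nkain2, which encodes a protein that interacts with the sodium pump, was at 210, 488, 242, 250 and 181 CPM in the members and at 128, 149, 52.4, 198 and 124 in the other nuclei, an interaction of 1.39 on the log2 scale (edgeR adjusted p = 3.13e-15), which turned to -0.44 against nuclei of the Pi16 set. Il1rapl1, a synaptic adhesion receptor, was at 88.1, 300.3, 62.1, 55.7 and 90.7 against 66.3, 91.5, 41.3, 47.5 and 112 (1.65, 5.29e-12). The library labelled Tg female 1 held the highest value of both genes in the members, and without it, or without that labelled Tg male 2, Il1rapl1 was not called (largest edgeR adjusted p = 0.818). C3 had an interaction of 1.26, with its values given above.

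Acsl1 had an interaction of 2.16 (edgeR adjusted p = 6.57e-11). In the other nuclei it stood at 33.9, 28.9, 30.7, 24.1 and 30.8 with no separation of the sexes. Within the members its difference was 0.91, and not called, without the 9 nuclei led by adipocyte genes. Among members with at least 3 of the rule's genes it was -0.88. The interaction was not tested without the 9 nuclei. C7 had an interaction of -2.30 (edgeR adjusted p = 6.63e-09), with 106, 102, 49.1, 230.3 and 548 in the other nuclei, where the female libraries were lower as well. Without the library labelled Tg female 1 neither Acsl1 (edgeR adjusted p = 0.467) nor C7 (0.805) was called. Erbb4 had an interaction of 2.05 (edgeR adjusted p = 1.68e-08), with 349, 214, 87.4, 135 and 92.6 in the other nuclei. Its difference within the members was 2.11, and not called, without the 9 nuclei led by adipocyte genes. Clstn2 had a fitted interaction of -3.99 (edgeR adjusted p = 0.0137), which is no measure of size since the members of the libraries labelled Tg female held 1 and 0 UMIs, and it was not called without that labelled Tg female 1 or Tg male 1.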

How the results depend on the processing

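Calls between the sexes rested on 2 libraries a side, and the counts moved more than the directions did. Among the members 32 genes were called; the count was 63 with at least 3 of the rule's genes per nucleus, 56 with all 5 libraries and a genotype term, 16 without that term, 200 with no filter on low counts, 50 with at least 10 UMIs in every library, and 8 to 89 when 1 library was left out (8 without Tg male 2, 89 without Tg female 2). Over all fibroblast nuclei 20 became 11 without the genotype term, 662 with no filter, 35 with 10 UMIs, 204 in DESeq2 and 185 to 1163 with 1 library left out. In the cluster 106 became 33, 222 with no filter, 65 in DESeq2 and 74 to 430. The interaction count of 52 was 29 against nuclei of the Pi16 set and 21 to 109 with 1 library left out. Why the counts moved was not tested. Same-numbered libraries did not deviate together (correlation of deviations -0.05 in the members and 0.05 in all fibroblast nuclei). With 2 libraries a side this cannot show whether the numbers pair libraries. A fit with the replicate number as a block called 142, 316 and 264 genes in the members, all fibroblast nuclei and the cluster.

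Against other fibroblast nuclei, the 11 genes at least 2-fold higher in each library were 7 with at least 3 genes of the rule, 4 with 2 fibroblast markers required, 4 after thinning, 3, 2 and 19 with Fgf10, Acss3 or Lvrn left out of the rule, 4 without the Car3-led nuclei, 7 within the 6 largest clusters and 64 against the Pi16 set. The 27 lower ones were 54 without doublets, 58, 44 after thinning, 41, 47 and 42 with Acss3, Lvrn or Dpep1 left out, 11 within the 6 clusters, 45 against the Pi16 set, and 34 to 52 with 1 library left out. Directions that reversed were Car3 (-1.66 with at least 3 genes, -1.33 without Fgf10 and -1.46 without Acss3 in the rule), BB365896 (-0.80 with at least 3 genes), Tmem108 (0.80) and Emcn (0.032) within the 6 clusters, Erbb4 (0.84 against the Pi16 set), Acsl1 between the sexes (-0.88 with at least 3 genes) and the interaction of Nkain2 (-0.44 against the Pi16 set). Thinning moved the background of the rule to 0.0125%, 0% and 0.113% in endothelial, macrophage and cardiomyocyte nuclei. The 28 genes apart in the library labelled nTg female 1 were 26 to 48 with 1 library labelled Tg left out. The library labelled Tg female 2 held 67 members.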
